A study of Bos taurus with 6 samples.

Results

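The enzymes described here attach ubiquitin to proteins or remove it. The members were every gene of the deposited table whose name begins with UBE2 and a letter (ubiquitin-conjugating enzymes) or with USP and a digit (ubiquitin-specific proteases). This rule, which uses no measured value, found 61 of 9537 genes, 30 UBE2 and 31 USP genes. All 61 names were symbols in the RefSeq gene table of the bovine assembly ARS-UCD2.0. That table has 34 protein-coding UBE2 and 50 protein-coding USP symbols, and the others, among them UBE2L6, UBE2O, USP7, USP9X, USP24, USP25 and USP34, were not analysed here. The rule also takes USP6NL, named for its likeness to USP6, whose product is no protease but an activator of GTP hydrolysis by RAB5.

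The libraries came from bovine (Bos taurus) blastocysts produced in vitro in a standard embryo medium (SOFaaci). Those labelled as having low cryosurvival after vitrification (3 libraries, titled LC with the code NV) were compared with those labelled as having high cryosurvival (3 libraries, titled HC with the code V). Vitrification is ice-free rapid freezing. The labels leave the codes V and NV unexplained, and they state neither when RNA was taken relative to vitrification nor if replicate libraries were made from different pools of embryos. The p-values thus measure only the spread between these libraries, which may be technical. All 6 were whole-embryo libraries, in which fewer cells of a type and less RNA per cell cannot be told apart.

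Ubiquitin is passed from an activating enzyme (E1) to a conjugating enzyme (E2), which hands it to a substrate with the help of a ligase (E3). Chains linked in different ways mark proteins for the proteasome, for DNA repair, for signalling or for sorting in endosomes. Most UBE2 genes encode E2s, which are small proteins built around 1 core fold, and a few of these carry a relative of ubiquitin, such as NEDD8, in its place. USP genes encode the largest family of deubiquitinases, cysteine proteases that are mostly much larger than E2s and cut ubiquitin from substrates or take chains apart. In early embryos this system takes part in the removal of maternal proteins, in the cell cycle and in the control of protein quality.

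Values are CPM, reads of a gene relative to a library size that the authors scaled. They are not per length, so levels are compared between libraries for 1 gene and not between genes. The table held 14651477 reads for low cryosurvival library 2 and 17591314 to 19467022 for the others, and 1 read was worth 0.0499 to 0.0751 CPM. Mean levels over the 6 libraries ran from 6.82 to 464 CPM for UBE2 genes and from 0.991 to 388 CPM for USP genes. Blastocyst markers were present in every library. Of the 10 trophectoderm genes 9 were lower in low, with a median log2 difference of -0.24 (-0.35 without low library 2), 4 had an unadjusted limma p below 0.05, and 0 passed the adjusted limma test. Their sum was carried by KRT8 and KRT18. Trophectoderm genes summed to 26941 to 37038 CPM in low and 31575 to 34894 CPM in high cryosurvival libraries, and epiblast genes to 1476 to 1637 and 1556 to 1715 CPM. Of the 10 measured epiblast genes 5 were higher and 5 lower in low, with a median log2 difference of -0.03. Among them NANOG was at 22.1, 12.2 and 14.3 CPM in low and at 47.3, 31.1 and 37.6 CPM in high libraries. Its log2 difference of -1.23 (limma adjusted p = 0.164) was the furthest from 0 of the 10. In the authors' deposited table the adjusted p of NANOG was 0.002. The 9 measured hypoblast genes summed to 1717 to 3128 CPM in low and 2360 to 3049 CPM in high libraries, with a median log2 difference of 0.50 (low minus high) and 0 limma calls. Of these genes 6 were higher and 3 lower in low, and 4 had an unadjusted limma p below 0.05. FN1, which carried most of the sum, was among the lower ones (log2 difference -0.13). Without low library 2 the median was 0.37 and limma called 3 of them, all higher, in a fit that called 13.6% of all genes. The part of these shifts between cell type markers in the results below was not tested. Of 13 cumulus and granulosa markers 6 were measured, and these summed to 396 to 542 CPM in low and 421 to 548 CPM in high cryosurvival libraries. The steroid synthesis genes HSD3B1 and CYP11A1 carried this sum, and FSHR averaged 7.51 CPM in low and 8.81 CPM in high libraries. Low cryosurvival library 2 stood apart from the other 5. The median level of 28 genes with long messengers minus that of 75 genes with short ones, both lists written from general knowledge without members, was -2.17 in that library on the log2(CPM + 1) scale. It was 0.19 and -0.17 in low libraries 1 and 3, and -0.70, -0.68 and -0.72 in the high libraries. Low libraries 1 and 3 both lay above all high ones in this measure, on the other side from library 2. Leaving out library 2 thus does not make the groups alike in it. Log2 differences below, low minus high, are given with all libraries and also without low cryosurvival library 2.

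No UBE2 or USP gene passed the adjusted test for a difference between low and high cryosurvival embryos, and no other gene did. The test was limma on log2(CPM + 1) over all 9537 genes with Benjamini-Hochberg adjustment, and differences are low minus high. It called 0 of the 61 members at an adjusted p of 0.05, against 0% of all genes. At an unadjusted p below 0.05 there were 2 members, UBE2D4 and UBE2E1, both lower in low, or 3.28% of the members against 12% of all genes, of which 6.27% were higher and 5.7% lower in low. The members' adjusted p-values ran from 0.314 to 0.999. The authors' deposited table gave none of the members an adjusted p below 0.05, against 1.2% of all genes. UBE2D4 and USP28 were the 2 members to which the authors' deposited table gave an unadjusted p below 0.05, against 8.94% of all genes. The low libraries lay all above the high ones in 4 members, against 10.4% of all genes, and all below them in 7, against 10.6%. These 11 members were 18% of the 61, and 21% of all genes had groups that did not overlap.

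By library, the members split between the 2 families. Lists of other genes with short and with long messengers, given below, split more widely in the same low libraries. In low cryosurvival library 2 the median UBE2 gene was 0.11 above its high cryosurvival mean on the log2(CPM + 1) scale, and the median USP gene was 0.39 below it (-0.39). In low libraries 1 and 3 the order was the other way round, with UBE2 medians of -0.14 and -0.11 and USP medians of 0.12 in each. In the high libraries UBE2 medians lay between -0.014 and 0.011 and USP medians between -0.013 and 0.026. High libraries are part of the mean they are measured from, which narrows their own deviations. The median over all genes stayed between -0.0042 and 0.0018 in every library. The UBE2 median minus the USP median was thus -0.26, 0.51 and -0.23 in low libraries 1, 2 and 3, and -0.031, -0.014 and 0.024 in high libraries 1, 2 and 3. The 3 low libraries lay on both sides of the 3 high ones.

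**Figure D1:**
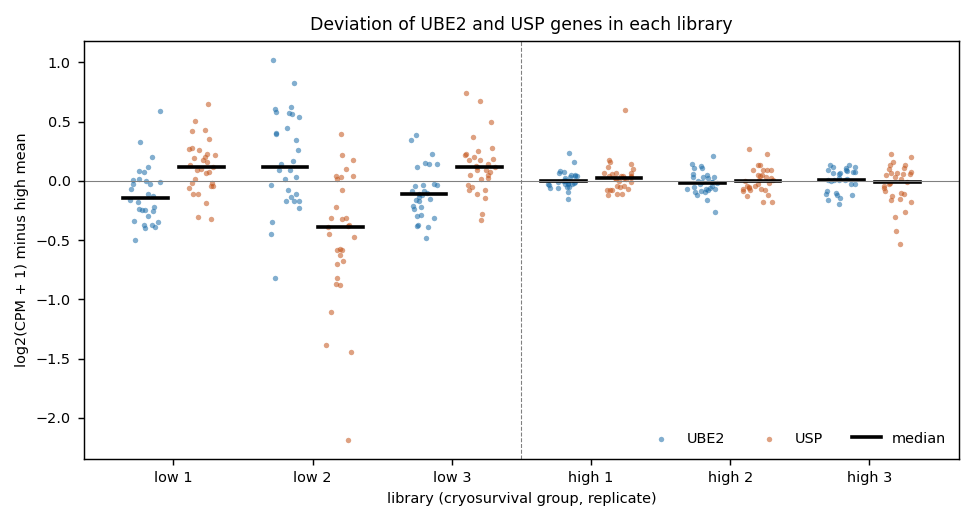
Each point is 1 UBE2 (blue) or USP (orange) gene in 1 library, as log2(CPM + 1) minus the gene's mean over the 3 high cryosurvival libraries, and bars are medians. In low library 2 the UBE2 median is at 0.11 and the USP median at -0.39, and in low libraries 1 and 3 the USP median is the higher one.

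Counts of members gave the same division. Low cryosurvival library 2 was the highest of the 6 libraries for 17 of 30 UBE2 genes and for 2 of 31 USP genes, against 34.5% of all genes. It was the lowest for 5 UBE2 and 22 USP genes, against 35.5% of all genes. For 10 UBE2 genes low library 2 lay above all high libraries while low libraries 1 and 3 lay below all of them, against 13.4% of all genes. Among them were UBE2C, UBE2D2, UBE2F, UBE2G2, UBE2J2, UBE2L3, UBE2N, UBE2S and UBE2T, and no USP gene did so. The mirror image, with library 2 below and libraries 1 and 3 above the high range, was seen for 2 UBE2 and 8 USP genes, against 13% of all genes. Summed over the family, UBE2 genes came to 2829, 3820 and 2877 CPM in low libraries 1, 2 and 3 and to 3278, 3182 and 3282 CPM in the high ones. USP genes summed to 1825, 1366 and 1810.0 CPM in the low libraries and to 1737, 1756 and 1689 CPM in the high ones. The high libraries differed little, and low library 2 was the highest for the UBE2 sum and the lowest for the USP sum.

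**Figure D2:**
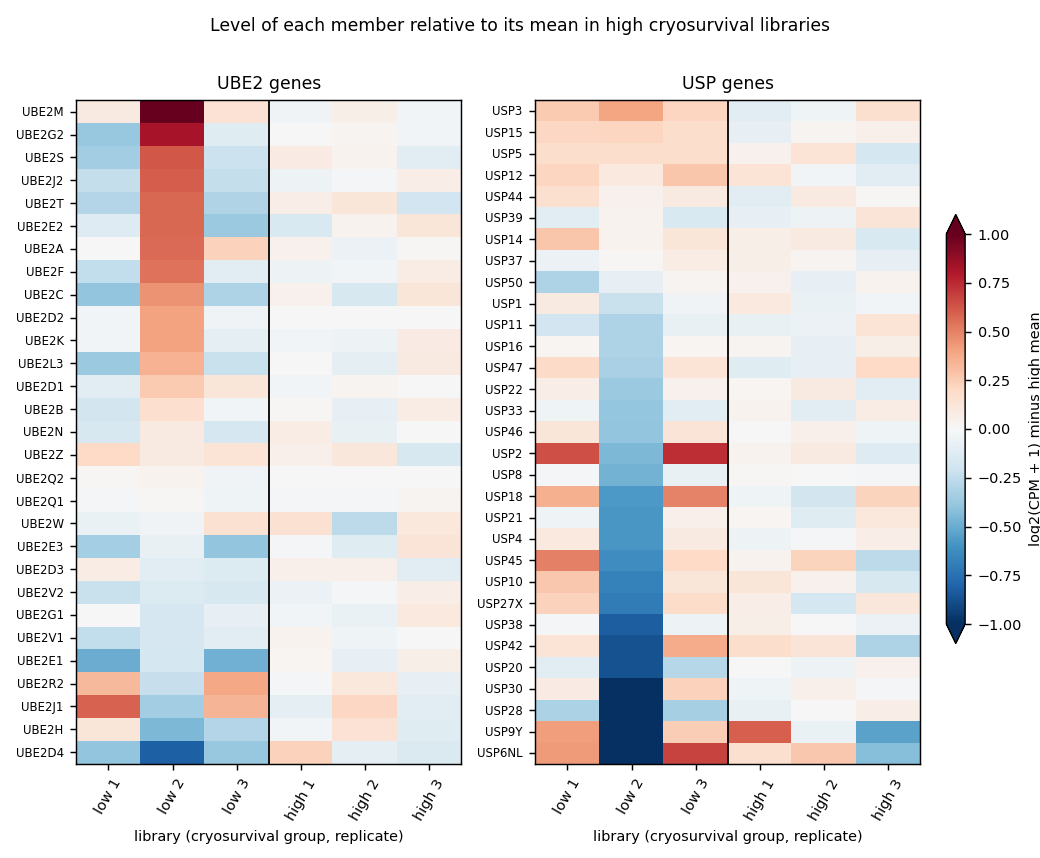
Rows are 29 of the 30 UBE2 genes (1 is not reported by name) and the 31 USP genes, sorted by low cryosurvival library 2, columns the 6 libraries, and colour the log2(CPM + 1) level minus the mean of the high libraries, with colours ending at -1 and 1. The column of low library 2 is mostly red for UBE2 genes, from -0.82 to 1.02, and mostly blue for USP genes, from -2.18 to 0.39.

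The UBE2D and UBE2E enzymes are E2s that work with many ligases, and their coding sequences are alike enough that reads of close copies may have been split between them. UBE2E1 had 371, 465 and 376 CPM in low libraries 1, 2 and 3, against 532, 496 and 546 CPM in high libraries 1, 2 and 3. The groups did not overlap, and library 2 was the low library nearest to the high ones. It averaged 404 ± 52.9 CPM (low) and 525 ± 25.8 CPM (high) (SD, n = 3 each), a log2 difference of -0.38 ± 0.14 (SE; limma adjusted p = 0.339). Without low library 2 the difference was -0.49 and limma called it (adjusted p = 0.0248).

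UBE2D4 had 7.29, 5.18 and 7.38 CPM in low libraries, against 11.8, 9.23 and 8.87 CPM in high libraries. The groups did not overlap here either, with library 2 the lowest. The log2 difference was -0.53 ± 0.18 (SE; limma adjusted p = 0.314), and -0.39 without low library 2 (0.0895). UBE2E3 lay at 79.3 ± 9.68 CPM (low) and 95.5 ± 8.54 CPM (high), with 1 low library, library 2 at 90.4 CPM, inside the high range. UBE2E2 had 12.7, 21.2 and 10.5 CPM in low libraries and 12.4 to 15.2 CPM in high ones. Log2 differences with and without library 2 were -0.27 and -0.37 for UBE2E3 and 0.02 and -0.25 for UBE2E2. The near-identical UBE2D2 and UBE2D3 parted in library 2. UBE2D2 was at 125, 168 and 124 CPM in low libraries and at 127, 127 and 128 CPM in high ones, while UBE2D3 was at 239.7, 211 and 207 CPM and at 236, 237 and 212 CPM. The ratio of UBE2D2 to UBE2D3 was 0.795 in low library 2 and 0.520 to 0.601 in the other 5 libraries. The log2 difference of UBE2D2 was 0.11 with library 2 and -0.03 without it, and that of UBE2D3 was -0.06 and -0.03. UBE2D1 had log2 differences near 0, 0.09 with all libraries and 0.0043 without library 2.

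UBE2C starts and UBE2S extends the chains that the anaphase-promoting complex builds on mitotic proteins, and UBE2T acts in the Fanconi anaemia pathway of DNA crosslink repair. These cell cycle and repair E2s were highest in low library 2. UBE2S had 264, 519 and 291 CPM in low libraries, against 357, 346 and 311 CPM in high libraries. The low group thus held both the highest value and the 2 lowest ones. UBE2C was at 121, 218 and 128 CPM in low libraries and at 164, 142 and 173 CPM in high ones, and UBE2T at 23.8, 44.3 and 23.7 CPM and at 30.8, 32.1 and 25.6 CPM. Their log2 differences of 0.02 for UBE2S, -0.08 for UBE2C and -0.0051 for UBE2T became -0.28, -0.35 and -0.30 without low library 2. Limma gave adjusted p-values of 0.106, 0.0783 and 0.126 there.

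Among E2s of ubiquitin-like proteins, UBE2M, which loads NEDD8 onto most cullins, was the UBE2 gene with the largest positive difference. It had 95.5, 183 and 99.3 CPM in low libraries, against 87.5, 93.8 and 88.3 CPM in high libraries. All low libraries lay above the high ones, but library 2 was far above the other 2. The mean was 126 ± 49.7 CPM (low) and 89.9 ± 3.43 CPM (high) (SD, n = 3 each), a log2 difference of 0.42 ± 0.26 (SE; limma adjusted p = 0.624). Without low library 2 it was 0.12 (0.380). UBE2F, the other NEDD8 E2, was at 65.8, 114 and 72.7 CPM in low libraries and at 75.6 to 82.6 CPM in high ones, with a log2 difference of 0.06 that was -0.18 without library 2.

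E2s of endoplasmic reticulum-associated degradation, which clears misfolded secretory proteins, differed within paralog pairs in how library 2 stood to the rest. UBE2J1 had 40.5, 20.7 and 34.0 CPM in low libraries, against 24.9, 30.9 and 24.6 CPM in high libraries. UBE2J2 had 74.3, 134 and 74.1 CPM in low libraries, against 84.5, 86.6 and 92.0 CPM in high libraries. Library 2 was the lowest of all 6 for UBE2J1 and the highest for UBE2J2. The ratio of UBE2J2 to UBE2J1 was 1.83, 6.45 and 2.18 in low libraries and 3.40, 2.80 and 3.74 in high ones, so library 2 and the other low libraries lay on opposite sides of the high range. UBE2G2 had 59.7, 138 and 71.5 CPM in low libraries and 77.4, 79.3 and 76.3 CPM in high ones. Its paralog UBE2G1 showed little spread, at 42.7, 37.9 and 40.3 CPM in low and 41.9, 40.6 and 45.6 CPM in high libraries. The ratio of UBE2G2 to UBE2G1 was 3.65 in low library 2 and 1.40 to 1.95 elsewhere. With all libraries the log2 differences were 0.19 for UBE2J1, 0.04 for UBE2J2, 0.11 for UBE2G2 and -0.08 for UBE2G1. Without low library 2 they were 0.46 for UBE2J1 (limma adjusted p = 0.0656), -0.24 for UBE2J2 (0.108), -0.25 for UBE2G2 (0.146) and -0.04 for UBE2G1 (0.792).

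**Figure D3:**
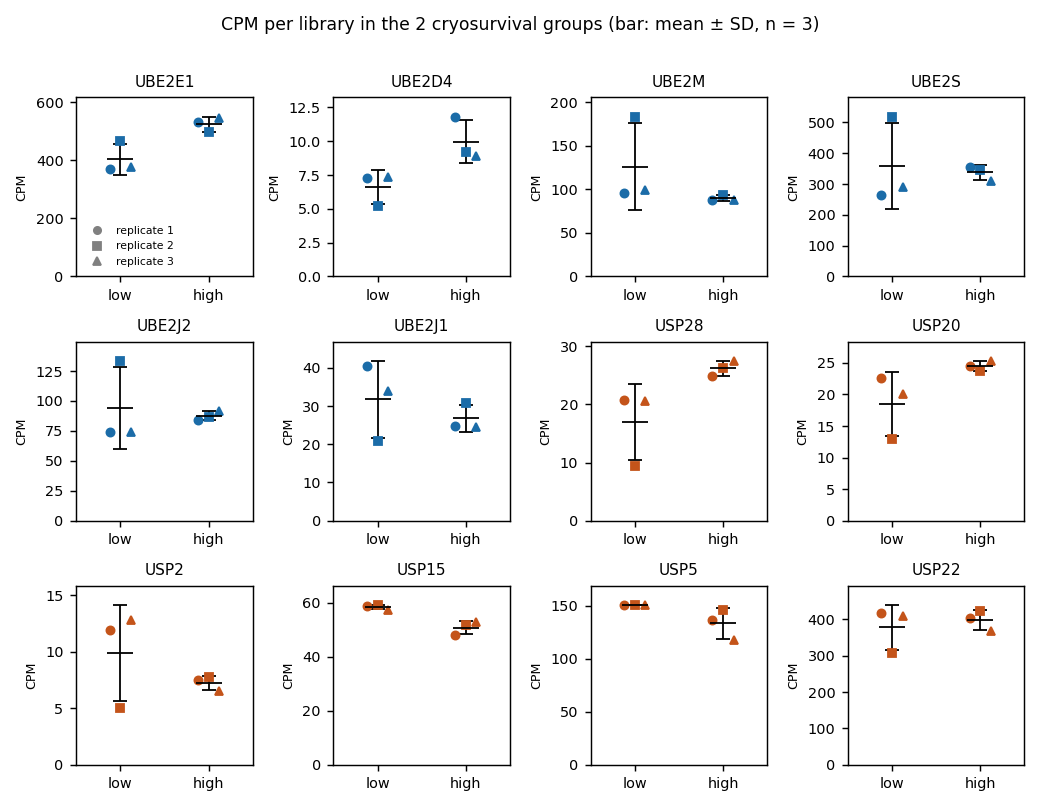
CPM of 6 UBE2 genes (blue) and 6 USP genes (orange) in low (left) and high (right) cryosurvival libraries, with a marker per replicate number and the mean ± SD of 3 libraries. The square of low library 2 is the highest low point for UBE2E1, UBE2M, UBE2S and UBE2J2 and the lowest for UBE2D4, UBE2J1, USP28, USP20, USP2 and USP22.

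UBE2N builds lysine 63-linked chains for signalling and DNA damage tolerance together with UBE2V1 or UBE2V2, E2 variants without a catalytic cysteine. Both variants were a little lower in all low libraries than in any high one. UBE2V1 was at 93.1, 98.1 and 102 CPM in low and at 113, 107 and 111 CPM in high libraries, and UBE2V2 at 62.2, 65.9 and 64.9 CPM in low and at 69.5, 72.1 and 76.2 CPM in high libraries. Their log2 differences were both -0.17 ± 0.11 (SE; limma adjusted p = 0.646 and 0.653), and -0.18 and -0.19 without library 2. These 2 genes hardly varied with library 2, unlike UBE2N, which had 171, 203 and 170.0 CPM in low libraries and 182 to 201 CPM in high ones and log2 differences of -0.08 with library 2 and -0.16 without it. UBE2A and UBE2B, which modify histone H2B and PCNA, had log2 differences of 0.27 and -0.01, and without library 2 of 0.12 and -0.10. UBE2L3, which serves HECT and RBR ligases, was at 197, 325 and 219 CPM in low libraries and at 239 to 272 CPM in high ones, a log2 difference of -0.08 that was -0.29 without library 2 (limma adjusted p = 0.0923).

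Some UBE2 genes went against their family. UBE2R2, a partner of cullin-RING ligases, was at 69.7, 47.1 and 72.8 CPM in low libraries and at 54.7, 59.7 and 52.2 CPM in high ones, with library 2 the lowest of all and log2 differences of 0.16 with it and 0.36 without it (limma adjusted p = 0.0544). UBE2H, an E2 of the GID/CTLH ligase, had its lowest value, 17.1 CPM, in low library 2, against 19.2 to 26.3 CPM in the other 5, and log2 differences of -0.21 with it and -0.09 without it. UBE2Q1 and UBE2Q2 hardly varied, from 103 to 108 CPM and from 64.4 to 67.8 CPM over the 6 libraries, and their log2 differences were -0.01 and 0.0029. UBE2Z, which takes ubiquitin from the E1 UBA6, was at 91.7 ± 3.65 CPM (low) and 83.2 ± 8.01 CPM (high), a log2 difference of 0.14 (limma adjusted p = 0.774) and of 0.17 without library 2.

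Of the USP genes, USP28 and USP20 had the lowest differences. USP28, linked to the stability of MYC and to the DNA damage response, had 20.8, 9.39 and 20.6 CPM in low libraries, against 24.9, 26.3 and 27.5 CPM in high libraries. All low libraries lay below the high ones, with library 2 lowest by far. Its log2 difference was -0.68 ± 0.29 (SE; limma adjusted p = 0.430), and -0.33 without library 2 (0.0555). USP20, first known as a deubiquitinase that binds the VHL protein, had 22.7, 12.9 and 20.0 CPM in low and 24.5, 23.7 and 25.3 CPM in high libraries. The groups did not overlap, and the log2 difference was -0.42 ± 0.21 (SE; limma adjusted p = 0.510) and -0.20 without library 2 (0.192). Its paralog USP33 was at 39.8, 31.2 and 38.0 CPM in low and 42.1, 37.8 and 43.3 CPM in high libraries, where the groups overlapped. Its log2 difference was -0.18 with library 2 and -0.08 without it.

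USP2, which acts on cyclin D1 and clock proteins, was the USP gene with the largest positive difference. It had 11.9, 5.03 and 12.8 CPM in low libraries, against 7.45, 7.76 and 6.54 CPM in high libraries. Libraries 1 and 3 of the low group were the highest of all and library 2 the lowest. The log2 difference was 0.31 ± 0.32 (SE; limma adjusted p = 0.814), and without low library 2 it was 0.69 and called by limma (adjusted p = 0.0185). USP18, which removes the ubiquitin-like protein ISG15, followed the same order at lower levels, with 3.19, 1.20 and 3.61 CPM in low and 2.19, 1.89 and 2.83 CPM in high libraries. Its log2 difference was 0.09 with library 2 and 0.42 without it (limma adjusted p = 0.0802).

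None of the deubiquitinases of chromatin passed the test, and the sign of some rested on low library 2. USP3, which acts on histones H2A and H2B, was at 9.29, 10.3 and 9.01 CPM in low libraries, against 6.95, 7.34 and 8.60 CPM in high libraries. The groups did not overlap and library 2 was the highest, a log2 difference of 0.29 ± 0.13 (SE; limma adjusted p = 0.453) that was 0.24 without library 2. USP22, the enzyme of the SAGA coactivator's deubiquitinating module, had 417, 307 and 411 CPM in low and 403, 423 and 369 CPM in high libraries. Without library 2 its log2 difference of -0.09 became 0.06. USP16, which acts on H2A, was at 76.7, 60.8 and 76.8 CPM in low and at 71.5 to 78.9 CPM in high libraries, with log2 differences of -0.09 with library 2 and 0.02 without it. USP44 rested on 13 to 23 reads in the low libraries and had a log2 difference of 0.10, and of 0.13 without library 2. USP1 and USP46, which share the cofactor WDR48 with USP12, had log2 differences of -0.05 each, which turned to 0.03 for USP1 and 0.12 for USP46 without library 2. USP12 was at 20.8 ± 1.32 CPM (low) and 18.1 ± 1.70 CPM (high), at a log2 difference of 0.20 (limma adjusted p = 0.647) and of 0.24 without library 2.

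The paralogs USP4, USP11 and USP15, deubiquitinases with roles in TGF-beta signalling and splicing, differed in how library 2 stood to the rest. USP15 was at 58.6, 59.0 and 57.4 CPM in low libraries, against 47.8, 51.6 and 52.6 CPM in high libraries. All low libraries lay above the high ones and were close to each other, with a log2 difference of 0.20 ± 0.11 (SE; limma adjusted p = 0.581) that was 0.19 without library 2. USP4 had 127, 78.6 and 126 CPM in low and 114, 117 and 124 CPM in high libraries, with library 2 far below the rest, and its log2 difference of -0.13 turned to 0.10 without that library. The ratio of USP15 to USP4 was 0.750 in low library 2 and 0.420 to 0.463 in the other 5 libraries. USP11 was at 112 ± 9.25 CPM (low) and 128 ± 10.9 CPM (high), at a log2 difference of -0.19 (limma adjusted p = 0.668) and of -0.13 without library 2.

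USP5 and USP14 recycle ubiquitin, USP5 from free chains and USP14 at the proteasome. USP5 was at 151, 150.4 and 151 CPM in low libraries, against 137, 146 and 118 CPM in high libraries. Low libraries differed from each other by less than 1 CPM and lay above all high ones, while the high group was the more variable. The log2 difference was 0.18 ± 0.13 (SE; limma adjusted p = 0.693), and the same without library 2. USP14 was at 87.2 ± 7.70 CPM (low) and 78.9 ± 7.06 CPM (high), a log2 difference of 0.14 (limma adjusted p = 0.788) and of 0.20 without library 2. USP8, which works on receptors in endosomes, had 100.1, 72.8 and 96.3 CPM in low and 102, 102 and 100.3 CPM in high libraries. Its groups did not overlap, yet the difference of -0.19 shrank to -0.05 without library 2.

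USP30, a protease of the mitochondrial outer membrane that opposes mitophagy, was at 37.6 and 41.9 CPM in low libraries 1 and 3 and at 34.6, 37.0 and 35.3 CPM in high libraries, while low library 2 held 213 reads of it, its lowest CPM of the 6. USP10, which binds the stress granule protein G3BP1, was at 106, 54.4 and 95.3 CPM in low and at 95.1, 90.3 and 78.3 CPM in high libraries. Low library 2 was the lowest for both, and for USP38 and USP47. Without it the log2 difference of USP30 turned to 0.15, against -0.27 with it, and that of USP10 to 0.19, against -0.10. USP38 had log2 differences of -0.30 with library 2 and -0.04 without it, and USP47, a paralog of USP7, 0.0017 and 0.17. USP39, a splicing factor without protease activity, did not follow the family. It had its second highest value, 93.4 CPM, in low library 2, against 82.0 to 99.7 CPM in the others, and log2 differences of -0.07 with it and -0.13 without it.

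The extremes of the USP group in low library 2 were USP6NL and USP9Y. USP6NL was at 53.3, 7.89 and 63.5 CPM in low libraries, against 44.0, 47.6 and 29.0 CPM in high libraries. Library 2 held 105 reads of it, and its log2 difference of -0.36 ± 0.73 (SE; limma adjusted p = 0.928) became 0.55 without that library (0.121). Its mean CPM with all libraries was 41.6 ± 29.6 (low) and 40.2 ± 9.85 (high) (SD, n = 3 each). The authors' deposited log2 fold of it, turned to low over high, was 0.049. USP9Y, the Y-linked relative of USP9X and so present in male embryos only, was at 3.19, 0.150 and 2.72 CPM in low and at 3.75, 1.99 and 1.17 CPM in high libraries. Reads of the near-identical USP9X may count towards it. Its log2 difference was -0.26 with library 2 and 0.33 without it. The value in low library 2 rests on 2 reads, and the sex of the embryos is not given in the labels. Without USP6NL the USP median in low library 2 was -0.39, as with it.

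The direction of the family contrast rested on low cryosurvival library 2. With all 6 libraries the median log2 difference, low minus high, was -0.0011 over UBE2 genes and -0.09 over USP genes, beside 0.00023 over all genes. UBE2 genes were higher in low in 15 of 30 cases and USP genes in 11 of 31. Without library 2 the medians were -0.13 for UBE2 and 0.13 for USP genes, beside -0.0072 for all genes, and 7 UBE2 and 23 USP genes were higher in low. The UBE2 median minus the USP median was 0.09 with that library and -0.26 without it. Of the 61 members 20 changed the sign of their difference when it was left out, or 32.8%, against 25.8% of all genes. Without library 2, both remaining low libraries lay above all high ones in 4 UBE2 and 13 USP genes, against 27.6% of all genes. They lay below all high ones in 15 UBE2 and 4 USP genes, against 27.5% of all genes. Together these were 36 of 61 members, against 55.1% of all genes. Limma without library 2 called 2 members, UBE2E1 lower and USP2 higher in low, or 3.28% of the members against 13.6% of all genes, of which 8.15% were higher and 5.48% lower. In that fit the median log2 difference was -0.37 over the list of short messengers and 0.27 over that of long ones. With all 6 libraries these medians were -0.02 and -0.12.

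**Figure D4:**
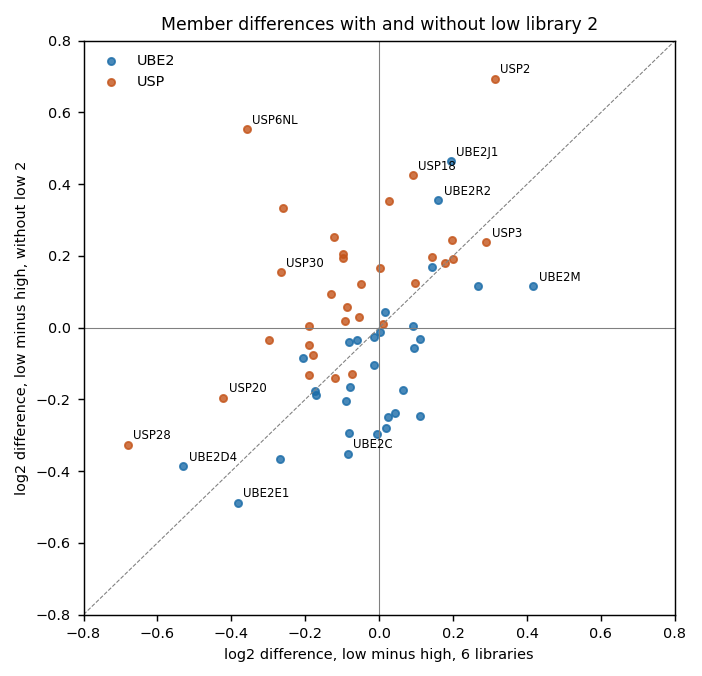
Each point is 1 member, with its log2 difference (low minus high cryosurvival) over 6 libraries on the x axis and without low library 2 on the y axis; the dashed line marks equal values. Above the line lie 26 of 31 USP genes (orange), and below it 22 of 30 UBE2 genes (blue).

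Lists of genes with short and with long messengers deviated in the same libraries. In low libraries 1, 2 and 3 the median deviation from the high mean was -0.42, 0.68 and -0.30 over the 75 genes of the short list and 0.37, -0.76 and 0.21 over the 28 genes of the long list. UBE2 medians in these libraries had the sign of the short list and USP medians that of the long list, at smaller size. In high libraries the short list lay between -0.12 and 0.13 and the long list between -0.028 and 0.016. The part of messenger length or RNA quality in the UBE2 and USP values was not tested. With the long minus short index of each library as a covariate, limma called 5 members, or 8.2% of them against 12.4% of all genes. UBE2D4, UBE2E1, USP20 and USP28 were lower and UBE2M higher in low cryosurvival embryos, with adjusted p-values of 0.0391, 0.0311, 0.0240, 0.0126 and 0.0278. Of all genes 6.21% were called higher and 6.15% lower in that fit. This index comes from the same libraries and leaves 3 residual degrees of freedom.

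**Figure D5:**
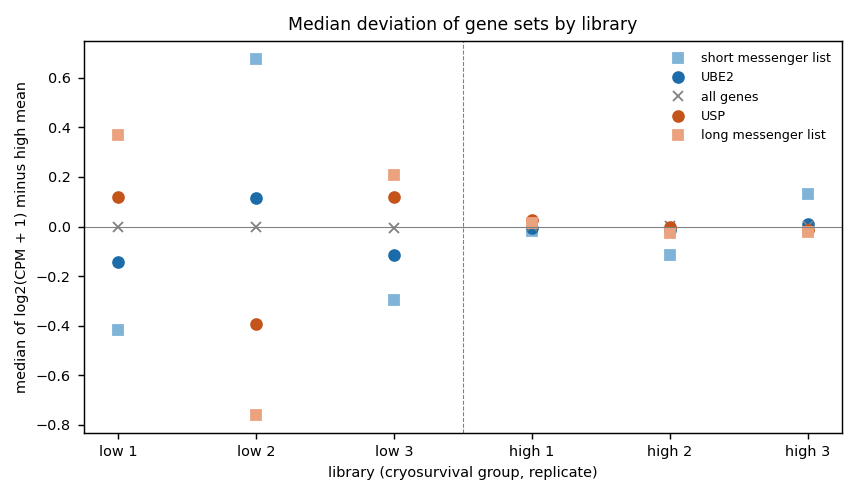
Median deviation of log2(CPM + 1) from the high cryosurvival mean, per library, for UBE2 (30 genes), USP (31), lists of short (75) and long (28) messengers and all 9537 genes. In low libraries UBE2 lies on the side of the short list and USP on the side of the long list.

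Other genes of the pathway also gave 0 limma calls. None of the 10 measured E1 genes, 12 genes of ubiquitin and its relatives, 27 other deubiquitinases, 25 HECT and RBR ligases, 31 RING-type partners of E2s or 11 USP cofactors passed, and none had an adjusted p below 0.05 in the authors' deposited table. Their median log2 differences were 0.04, -0.0062, -0.01, 0.0057, 0.05 and -0.04. The list of other deubiquitinases also held genes whose products act on SUMO or NEDD8 instead of ubiquitin. That of RING-type partners also held cullins and an E2. UBA1, the main E1, was at 625, 604 and 572 CPM in low libraries and at 492, 489 and 598 CPM in high ones. UBA6, the second ubiquitin E1, was at 18.3 ± 3.98 CPM (low) and 20.3 ± 1.87 CPM (high).

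Of the genes that encode ubiquitin itself, RPS27A, which fuses it to a ribosomal protein, was at 714, 1383 and 778 CPM in low libraries and at 869.6, 841 and 928 CPM in high libraries. UBB, a polyubiquitin gene, was at 985, 1389 and 1059.6 CPM in low and 1122, 1073 and 1269 CPM in high libraries. Low library 2 was the highest of the 6 for both. The list of ubiquitin genes and relatives had a median log2 difference of -0.0062 with low library 2 and -0.25 without it.

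Of the 31 RING-type partners of E2s 4 had an unadjusted limma p below 0.05, a share close to the 12% of all genes. All 4 were higher in low, and they and RNF7 were named after their values were seen. SYVN1, the ligase of endoplasmic reticulum-associated degradation, was at 104, 66.7 and 118 CPM in low and at 64.2, 66.0 and 58.4 CPM in high libraries (limma adjusted p = 0.373, and 0.0158 without low library 2). The p53 ligase MDM2 was at 86.1, 50.4 and 88.1 CPM in low and at 45.7, 49.1 and 44.3 CPM in high libraries (0.338, and 0.0113 without low library 2). The other two were RNF13 and the SUMO ligase PIAS4, for which limma's adjusted p was 0.380 and 0.368; without low library 2 it was 0.0994 for RNF13 and 0.132 for PIAS4. The cullin-RING subunit RNF7 was called lower in low without library 2 (log2 difference -0.52, limma adjusted p = 0.0302) and not with it (-0.28, 0.735). That fit called 13.6% of all genes. In SYVN1, MDM2, RNF13 and PIAS4 every low library lay above every high one, as in 10.4% of all genes. This held for 6 of the 31 RING-type partners, these 4 among them, and for 5 of the 25 HECT and RBR ligases. In 1 gene of each of these lists every low library lay below every high one, against 10.6% of all genes.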

How the data were processed

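The members and gene lists were chosen with earlier results of these data known. Per the labels' protocols, column-purified, DNase-treated RNA with an integrity number of 7.7 or more went into NEBNext Ultra II libraries. The submitters' processing notes list DESeq 1.12.1, HTSeq 0.5.4p2, TopHat2 2.0.8 with Bowtie2 2.1.0, SAMtools 0.1.18 and, also with no role given, Cufflinks 2.1.1. Not given in the sources used here are genome build, annotation, strand use and any filter on low values. No coordinates are printed for that reason, and reads of overlapping or antisense genes cannot be told apart. The authors' deposited table gives CPM per library, a log2 fold (high over low) and p-values, raw and adjusted. That the values are CPM was worked out from them: up to 1000 CPM, 100% of the values were whole multiples, within 0.05 read, of 1 step per library. The lowest mean was 0.737 CPM, so genes below this are not analysed here, and all 61 members in the table entered the fit without a filter (57 had a mean of at least 5 CPM, the filter tried as an alternative).

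Limma 3.58.1 in R 4.3.3 was fitted on log2(CPM + 1) across 9537 genes, with 4 residual degrees of freedom, and was tested on simulated data. The simulation used the same dispersion for all genes and had no library set apart. It therefore does not show what could be detected in these libraries. A pseudocount of 1 understates changes of genes at low CPM. Named members were, per family, the 6 with the highest CPM, the 6 largest differences in each direction, any member called by the authors or with separate groups and an unadjusted p below 0.05, and fixed paralog sets. Alternatives were other pseudocounts and filters, quantile normalization, a replicate block, each library left out and, chosen after seeing the data, voom on recovered reads, a length index and the USP set without USP6NL. Some members and pathway genes are counted but not reported here by name.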

Additional observations from a re-analysis of the deposited data

How the results depend on the processing

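Under pseudocounts of 0.1 and 0.5, a filter at a mean of 5 CPM, quantile normalization, voom on recovered reads and the replicate block, 0 members and 0 genes of the pathway lists were called by limma, as in the fit without them. At an unadjusted p below 0.05 there were 1 to 3 members under these. The UBE2 median minus the USP median stayed between 0.06 and 0.09 there. With the length index 5 members and 11 pathway genes were called, in a fit that called 12.4% of all genes. Pathway genes were not kept out of this index, and the 11 included a gene of its long list. Leaving out 1 library at a time gave 0 to 2 called members, 0 to 10 called pathway genes, a UBE2 median of -0.13 to 0.066, a USP median of -0.16 to 0.13, a UBE2 minus USP difference of -0.26 to 0.23 and 12 to 36 members whose groups did not overlap. The low end of the difference and the highest counts came without low cryosurvival library 2, where limma called 13.6% of all genes. Leaving out a library can only keep or raise the number of genes whose groups do not overlap. Such members numbered 11 with all libraries, against 21% of all genes, and 36 without low library 2, against 55.1% of all genes. Deviations of same-numbered libraries from their group means had correlations across genes of 0.12, -0.26 and -0.31 for numbers 1, 2 and 3. Between different numbers these ran from -0.36 to 0.37. Such deviations sum to 0 within a group, so they cannot decide if shared numbers mark pairs, and the numbers are not read as pairs. The replicate block gave 0 called members, as did the fit without it. A planned length covariate from protein lengths and 2 planned count models were not run. Members near 1 CPM rest on few reads (13 to 23 for USP44 in low libraries), which limits what could be detected there.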
